A study of Populus alba x Populus glandulosa with 12 samples.

Results

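The step from day 3 to day 6 of drought was examined in leaves of the 84K poplar clone, wild type in genotype, which is a laboratory tree from a cross between Populus alba and Populus glandulosa. The 3 libraries of day 6 were set against the 3 libraries of day 3, which are 6 of the 12 libraries of the series. Genes were kept where FPKM (fragment counts scaled to transcript length and library size) was at least 1 in at least 3 of these 6 libraries, which left 38012 of 85392 gene models. All 4 groups of the series are the same genotype and tissue after 0, 3, 6 or 9 days of drought, with 3 libraries each. The labels list no unstressed plants beside days 3, 6 or 9 and give each day a batch of its own, so drought, elapsed time and batch cannot be told apart. Replicates are described as biological, without a statement that each is its own plant, so p-values measure the spread between these libraries. In bulk leaf RNA, fewer cells of a type and less RNA per cell cannot be told apart either.

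Leaves that lose water accumulate abscisic acid, a hormone that closes stomata and acts through PYL receptors, PP2C phosphatases, SnRK2 kinases and ABF transcription factors. Under longer drought, leaves make compatible solutes such as raffinose-family sugars, slow their growth, and can take the photosynthetic apparatus apart and move its nitrogen and carbon elsewhere. The antenna proteins LHCA and LHCB hold most leaf chlorophyll, and Rubisco fixes carbon with small subunits encoded by rbcS.

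The 3 libraries of day 6 summed to between 684857 and 688983 FPKM, against 717938 to 732119 FPKM on day 3. On day 6, 34492 to 34687 genes reached 1 FPKM per library, against 37693 to 37765 on day 3. The 10 most abundant genes held 7.23% to 7.39% of all FPKM on day 6, against 5.13% to 5.4% on day 3. Libraries of the same day correlated at a mean Pearson r across genes of 0.978 on day 6 and 0.975 on day 3, and libraries of day 6 with those of day 3 at 0.779, over genes that are not independent. Read counts were not analysed here. A rough relative depth, taken from how low FPKM values are spaced, depended on the range of values used. With values between 0.15 and 0.6 FPKM it was 0.88 to 0.949 on day 6, against 0.943 to 0.949 on day 3. With values between 0.3 and 1.5 FPKM it was 0.911 to 1.19 on day 6, against 0.943 to 0.983 on day 3. Both ranges were chosen after the data were seen, and the relative depth of the days was not settled by them.

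Of the 38012 genes, 28235 (74.3%) passed limma's test at an adjusted p under 0.05, 10212 of them higher on day 6 (26.9%) and 18023 lower (47.4%). A change of at least 1 on the log2(FPKM + 1) scale was reached by 2963 genes that rose (7.79%) and 6170 that fell (16.2%). At a size of at least 2 there were 828 that rose and 1566 that fell, and at 4 there were 75 and 144. The median change over all genes tested was -0.20 log2 with the deposited values. Median-ratio scaling, which sets the typical gene to no change, moved that median by 0.208 log2. It gave 14035 genes higher (36.9%) and 13895 lower (36.6%), so the share of calls that were higher was 50.3%, against 36.2% with the deposited values. At 1 log2 it called 3972 higher (10.4%) and 4715 lower (12.4%). At 1 log2 in either direction the deposited values gave 24.0% of genes. The 3 libraries of day 6 did not overlap those of day 3 in 76.8% of genes, 28.0% higher and 48.7% lower. At 1 log2 all 2963 rises and 4715 of the 6170 falls were called under both scalings. Scaling raised day 6 relative to day 3 in every gene, so rises could only grow and falls only shrink. This overlap follows from the direction of the shift and is no check on the calls.

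**Figure D1:**
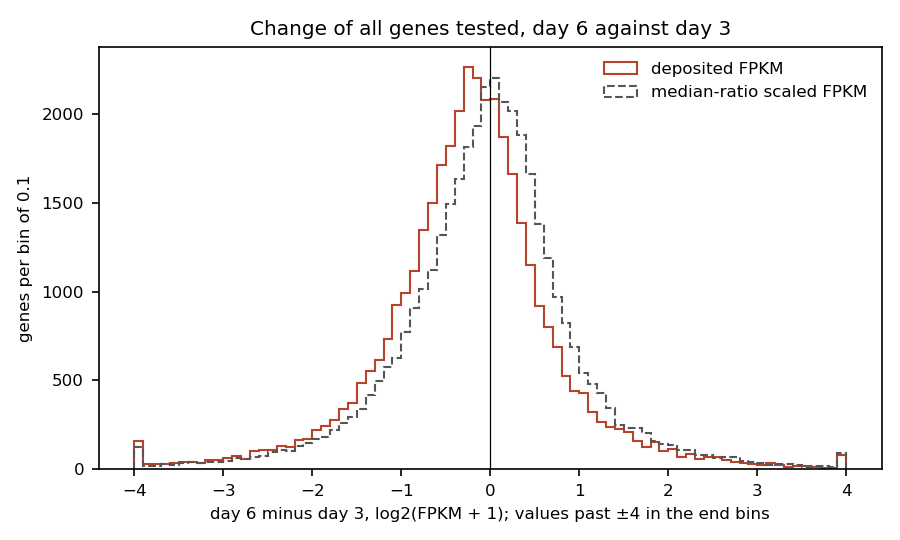
Number of genes (y axis) by log2(FPKM + 1) change, day 6 minus day 3 (x axis, bins of 0.1), for deposited FPKM (solid line) and median-ratio scaled FPKM (dashed line). The 38012 genes centre on -0.20 with the deposited values and close to 0 after scaling.

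The threshold on low values has a bearing on these counts. The third-highest of the 6 values was 1.0 FPKM in the genes just inside and 0.99 FPKM in those just outside. There were 3919 genes with exactly 3 libraries at the threshold and 1347 with exactly 2. Genes kept through day 6 alone numbered 701, of which 684 were called higher, and 2801 were kept through day 3 alone, of which 2779 were called lower. Such genes had to differ, so their number is given beside many of the lists below, whose counts and medians describe the genes kept and not all members. Rises and falls in every list are to be read beside the 26.9% higher and 47.4% lower over all genes.

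Nearly all genes of light capture fell on day 6. Of 49 light-harvesting antenna genes tested, 48 fell and 0 rose, with a median of -3.69 log2 (-3.44 after median-ratio scaling), beside -0.20 over all genes. Summed over the list, the antenna genes gave 734, 738 and 744 FPKM in the day 6 libraries, against 10326, 11728 and 10713 FPKM in the day 3 libraries. The groups lay far apart, and 7 of the 49 genes were kept through day 3 alone. LHCB1 gene Pag.A05G002416.v3.1, a major antenna protein of photosystem II, had 3.83, 3.96 and 5.64 FPKM on day 6, against 575, 1305 and 606 FPKM on day 3. It fell by 7.15 log2 (SE 0.30, adjusted p = 2.45e-08). In LHCB2, Pag.B14G001625.v3.1 had 0.87, 0.85 and 0.6 FPKM on day 6, against 121, 123 and 129.6 FPKM on day 3. It fell by 6.15 log2 (SE 0.07, adjusted p = 3.54e-14), and in neither gene did the days overlap.

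Subunits of the photosystems and of electron transport followed. Of 110 tested, 98 fell and 5 rose, with a median of -2.82 log2 (-2.60 after scaling), and 9 of the 110 were kept through day 3 alone. Their summed level was 2451, 2428 and 2465 FPKM on day 6, against 18564, 19415 and 19429 FPKM on day 3. The psbR gene Pag.A11G001566.v3.1, for a photosystem II protein, had 1.24, 0.35 and 4.14 FPKM on day 6, against 185, 212 and 215 FPKM on day 3. It fell by 6.36 log2 (SE 0.41, adjusted p = 6.49e-07). A psbW gene, Pag.A02G002342.v3.1, also of photosystem II, had 1.96, 1.96 and 0.56 FPKM on day 6, against 104, 111 and 109 FPKM on day 3. A psaG gene of photosystem I, Pag.B11G000022.v3.1, was listed at 0 in all day 6 libraries, against 63.1, 71.1 and 66.5 FPKM on day 3. Each of these genes was separated between the days without overlap. A petF (ferredoxin) gene, Pag.B08G002217.v3.1, rose by 0.88 log2 (SE 0.08, adjusted p = 1.25e-06). Genes named for the plastid genome were counted as another list, in which only 73 of 1027 gene models were tested. Of the 73, 11 fell, 1 rose and 61 did not pass (median -0.29, scaled -0.10), with 6 kept through day 3 alone. Their summed level was 497, 486 and 430 FPKM on day 6, against 674, 466 and 751 FPKM on day 3. With such a spread on day 3, a gene that did not pass was not shown to be stable.

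Carbon fixation and pigment synthesis moved the same way. Among 45 carbon fixation genes 38 fell and 6 rose (median -1.43, scaled -1.19), and among 64 genes of chlorophyll synthesis 55 fell and 5 rose (median -1.48, scaled -1.28). Of these lists 5 and 10 genes were kept through day 3 alone. The rbcS gene Pag.A04G001052.v3.1 had 7.76, 9.63 and 9.62 FPKM on day 6, against 162, 167 and 156 FPKM on day 3. It fell by 4.03 log2 (SE 0.08, adjusted p = 2.83e-12), with no overlap. A por gene, Pag.B01G004254.v3.1, for the light-dependent protochlorophyllide reductase, had 0.4, 0.56 and 0.99 FPKM on day 6, against 60.7, 60.5 and 63.8 FPKM on day 3. It fell by 5.26 log2 (SE 0.12, adjusted p = 4.31e-12). A hemA gene, Pag.A09G000810.v3.1, which acts at the entry to tetrapyrrole synthesis, went the other way and rose by 1.74 log2 (SE 0.10, adjusted p = 8e-09). Of 17 chlorophyll breakdown genes 12 rose and 3 fell (median 0.61, scaled 0.85). The stay-green gene Pag.B01G001209.v3.1, of the family that starts chlorophyll degradation, had 48.8, 46.9 and 45.6 FPKM on day 6, against 14.8, 12.8 and 15.1 FPKM on day 3. It rose by 1.66 log2 (SE 0.10, adjusted p = 1.23e-08). HCAR Pag.A10G000791.v3.1, a chlorophyll b to a converting enzyme, fell by 0.71 log2 (SE 0.06, adjusted p = 2.03e-07).

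Photorespiration genes showed 43 falls and 11 rises among 60 (median -0.68, scaled -0.48). Ribosomal proteins of organelle type showed 139 falls and 6 rises among 181 (median -0.78, scaled -0.60), with 4 kept through day 3 alone. Glutamine synthetase gene Pag.A08G000514.v3.1, of nitrogen assimilation, had 1.89, 1.68 and 1.49 FPKM on day 6, against 64.1, 63 and 59.3 FPKM on day 3. It fell by 4.56 log2 (SE 0.13, adjusted p = 5.64e-11). The nitrogen assimilation list counted 26 falls and 11 rises among 43.

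**Figure D2:**
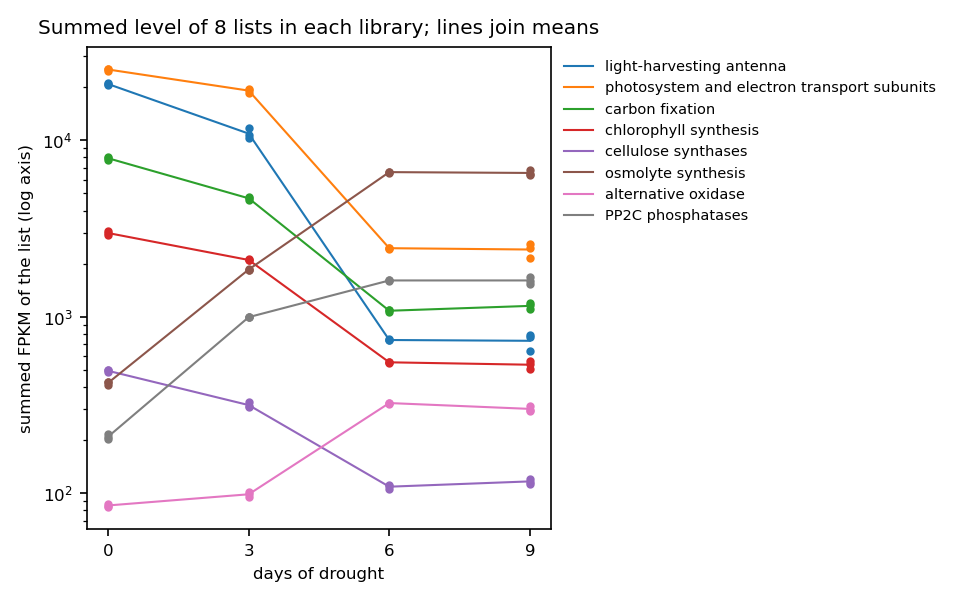
Summed FPKM of 8 gene lists (log y axis) against days of drought (x axis); points are libraries and lines join the 3-library means. The antenna sum averages 20850, 10920, 739 and 731 FPKM on days 0, 3, 6 and 9, and the osmolyte sum 422, 1854, 6607 and 6536 FPKM.

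Lists of cell wall growth and of growth hormones differed among themselves. All but 1 of 33 cellulose synthase genes fell and 0 rose (median -1.31, scaled -1.11), summing to 106, 109 and 112 FPKM on day 6, against 327, 307 and 314 FPKM on day 3, and 8 of the 33 were kept through day 3 alone. Expansins, which loosen cell walls, showed 9 falls and 1 rise among 11 (median -1.60), but 5 of the 11 were kept through day 3 alone and had to be lower on day 6. The expansin Pag.B19G000862.v3.1 had 0.73, 0.93 and 0.83 FPKM on day 6, against 35.9, 33.8 and 33.6 FPKM on day 3. It fell by 4.28 log2 (SE 0.05, adjusted p = 7.15e-14). Aux/IAA repressors of auxin signalling showed 37 falls and 4 rises among 44 (median -1.43, scaled -1.26), with 10 kept through day 3 alone. In this list Pag.B13G000446.v3.1 had 0.37, 0.38 and 0.22 FPKM on day 6, against 14.4, 14.5 and 12.7 FPKM on day 3. It fell by 3.49 log2 (SE 0.09, adjusted p = 1.43e-11), while Pag.B01G002127.v3.1 rose by 0.96 log2 (SE 0.08, adjusted p = 2.62e-07). Of 23 genes in the brassinosteroid biosynthesis pathway 22 fell and 0 rose (median -1.95, scaled -1.78), with 3 kept through day 3 alone. The CYP90B (DWF4) gene Pag.B07G001319.v3.1, for a rate-limiting hydroxylase of that pathway, had 1.14, 1.35 and 1.41 FPKM on day 6, against 27.4, 27.1 and 26.9 FPKM on day 3. It fell by 3.61 log2 (SE 0.13, adjusted p = 1.8e-10).

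Histones counted 56 falls and 7 rises among 74 (median -0.71, scaled -0.48), with 4 kept through day 3 alone. Of 85 cyclin gene models only 22 were tested, and 11 of these were kept through day 3 alone, which leaves most cyclins outside the 16 falls and 3 rises counted. The H4 histone gene Pag.A07G001698.v3.1 had 8.17, 4.88 and 9.49 FPKM on day 6, against 86.9, 108 and 102 FPKM on day 3. It fell by 3.59 log2 (SE 0.23, adjusted p = 3.61e-07). Xyloglucan transferases, which remodel cell walls, split into 25 falls and 13 rises among 39, with 8 kept through day 3 alone and 2 through day 6 alone. Of these Pag.B13G001483.v3.1 was listed at 0, 0 and 0.43 FPKM on day 6, against 70.2, 65.2 and 64.4 FPKM on day 3. The opposite was seen in Pag.B01G001438.v3.1, which had 32, 28.6 and 27.9 FPKM on day 6, against 3.46, 3.48 and 3.43 FPKM on day 3. SAUR genes, auxin-inducible in other plants, showed 16 rises and 8 falls among 38 (median 0.40, scaled 0.62), with 3 kept through day 6 alone and 6 through day 3 alone. The largest fall there, Pag.A04G001679.v3.1, had 0, 0 and 0.16 FPKM on day 6, against 43.8, 44.6 and 35.8 FPKM on day 3.

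**Figure D3:**
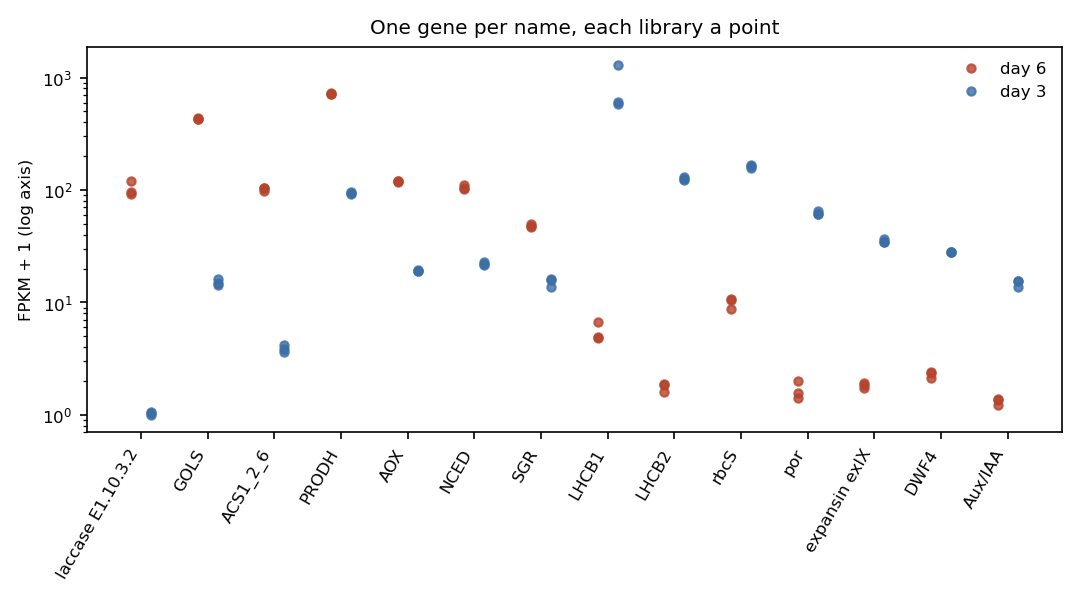
FPKM + 1 on a log y axis for 14 genes (x axis), with the 3 libraries of day 6 left of the 3 libraries of day 3 for each gene, each point a library. The 7 genes on the left are higher on day 6 and the 7 on the right lower, with no overlap between days in any of them.

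Genes of raffinose-family sugars mostly rose, and those of trehalose were divided. Of 36 osmolyte synthesis genes, a list not limited to these sugars, 26 rose, 3 fell and 7 did not pass (median 1.17, scaled 1.36). The list summed to 6642, 6522 and 6655 FPKM on day 6, against 1858, 1851 and 1853 FPKM on day 3. Galactinol synthase (GOLS), the entry to raffinose-family sugars, had 10 of 13 genes higher and 3 lower. The GOLS gene Pag.A08G001549.v3.1 had 430.4, 426 and 440.1 FPKM on day 6, against 13.4, 15.3 and 13.8 FPKM on day 3. It rose by 4.84 log2 (SE 0.06, adjusted p = 3.71e-14). In contrast Pag.A08G000608.v3.1, annotated as GOLS and PANK1_2_3, was 1 of the 3 and fell by 2.17 log2 (SE 0.04, adjusted p = 9.03e-13). Genes named E2.4.1.82, galactinol-sucrose galactosyltransferase (raffinose synthase), rose in 12 of 13 with none lower. Their summed mean level was 3651 FPKM on day 6, against 589 FPKM on day 3. Trehalose metabolism counted 15 rises (37.5%) and 22 falls (55.0%) among 40, against 26.9% and 47.4% over all genes (median -0.32, scaled -0.09). After scaling the list had 16 rises and 16 falls. Its summed level was 529, 527 and 527 FPKM on day 6, against 415, 401 and 408 FPKM on day 3.

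Catabolic and respiratory lists were divided. With the deposited values, rises were fewer than falls in oxidative phosphorylation (80 and 91 among 251) and glycolysis (71 and 139 among 261). The same held for fatty acid degradation (41 and 50 among 110), the peroxisome (69 and 88 among 195) and all genes (26.9% and 47.4%). After scaling the counts were 121 and 64, 97 and 105, 49 and 41, and 90 and 67 in that order. Only glycolysis then kept fewer rises than falls. All 3 proline dehydrogenase genes rose (median 2.24, scaled 2.46). The most abundant, Pag.B17G000516.v3.1, had 719, 726 and 714 FPKM on day 6, against 94.8, 93.3 and 91.2 FPKM on day 3. It rose by 2.94 log2 (SE 0.04, adjusted p = 5.84e-14). All 6 alternative oxidase genes, for the mitochondrial oxidase that bypasses proton pumping, rose (median 1.47, scaled 1.71). In the largest rise, Pag.B03G001244.v3.1 had 118, 118 and 120.0 FPKM on day 6, against 17.9, 18.1 and 18.4 FPKM on day 3. Citrate cycle genes counted 65 rises and 35 falls among 128 (median 0.22, scaled 0.45). An isocitrate lyase (aceA) gene, Pag.A17G001417.v3.1, of the glyoxylate cycle, had 48.4, 54.6 and 54.3 FPKM on day 6, against 0.4, 0.48 and 0.28 FPKM on day 3. It rose by 5.27 log2 (SE 0.15, adjusted p = 4.65e-11). A phosphoenolpyruvate carboxykinase (pckA) gene, Pag.B07G001461.v3.1, had 41.5, 45 and 39 FPKM on day 6, against 2.73, 2.71 and 2.78 FPKM on day 3. It rose by 3.51 log2 (SE 0.06, adjusted p = 9.2e-13). The branched-chain ketoacid dehydrogenase gene Pag.B05G001863.v3.1 rose by 2.50 log2 (SE 0.05, adjusted p = 1.2e-12). Its list had 36 rises and 45 falls among 109, or 50 rises and 33 falls after scaling.

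Carriers and starch genes were divided. In the SWEET sugar carrier list 10 fell and 5 rose among 16, while the list summed to 1084, 1094 and 1042 FPKM on day 6, against 359.7, 359 and 359.9 FPKM on day 3. The SWEET gene Pag.A01G000814.v3.1 had 588, 592 and 561 FPKM on day 6, against 25, 24.4 and 22.3 FPKM on day 3. It rose by 4.55 log2 (SE 0.06, adjusted p = 1.15e-13). Another SWEET gene, Pag.B13G000132.v3.1, had 8.78, 7.38 and 7.55 FPKM on day 6, against 93.9, 95.7 and 94.5 FPKM on day 3. It fell by 3.43 log2 (SE 0.14, adjusted p = 3.59e-09). Starch breakdown genes counted 34 falls (57.6%) and 18 rises (30.5%) among 59, against 47.4% and 26.9% over all genes, with 7 kept through day 3 alone. The beta-amylase (E3.2.1.2) gene Pag.B17G001409.v3.1 had 4.53, 4.79 and 5.43 FPKM on day 6, against 158, 164 and 153 FPKM on day 3, and Pag.A08G000742.v3.1 had 20.9, 23.3 and 21.4 FPKM on day 6, against 4.08, 4.43 and 3.45 FPKM on day 3. Aquaporins showed 42 falls and 13 rises among 59 (median -0.70, scaled -0.54). Their summed level went the other way, with 6041, 5861 and 5826 FPKM on day 6, against 4425, 4457 and 4522 FPKM on day 3. Of these the tonoplast type (TIP) gene Pag.B16G000498.v3.1 fell by 3.83 log2 (SE 0.07, adjusted p = 6.42e-13), and the plasma membrane type (PIP) gene Pag.A06G001708.v3.1 rose by 3.00 log2 (SE 0.10, adjusted p = 7.63e-11).

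In the abscisic acid pathway, synthesis genes counted 15 falls and 7 rises among 22 (median -0.92, scaled -0.76), with 5 kept through day 3 alone. Their summed level was higher on day 6, with 674, 712 and 675 FPKM, against 494, 488 and 499.9 FPKM on day 3. NCED, the rate-limiting enzyme, held members that moved in opposite directions. The NCED gene Pag.A01G004369.v3.1 had 102, 109.6 and 102 FPKM on day 6, against 21.7, 20.6 and 20.8 FPKM on day 3. It rose by 2.26 log2 (SE 0.07, adjusted p = 7.38e-11). By contrast Pag.B19G001289.v3.1 had 1.39, 0.42 and 0.33 FPKM on day 6, against 42.4, 42.7 and 45.6 FPKM on day 3. It fell by 4.75 log2 (SE 0.27, adjusted p = 9.01e-08). CYP707A hydroxylases, which inactivate abscisic acid, had 6 rises and 5 falls among 11. In that list Pag.A01G002806.v3.1 had 26.3, 26.7 and 25.4 FPKM on day 6, against 1.52, 1.04 and 1.79 FPKM on day 3, and Pag.B02G001406.v3.1 had 0.09, 0.08 and 0.23 FPKM on day 6, against 12.5, 12.7 and 13.8 FPKM on day 3. In both lists these members were separated between the days without overlap, in both directions.

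Receptors and their partners differed in count. PYL receptors showed 13 falls and 3 rises among 16 (median -0.59, scaled -0.41), with 3 kept through day 3 alone. The PYL gene Pag.B14G000896.v3.1 had 9.49, 11.2 and 11.2 FPKM on day 6, against 31.8, 31.8 and 33.5 FPKM on day 3. It fell by 1.52 log2 (SE 0.07, adjusted p = 2.94e-09). Among PYL genes with a mean of at least 5 FPKM on the higher day, the largest rise, in Pag.B12G000371.v3.1, was 0.19 log2 (SE 0.07, adjusted p = 0.0206). That call was lost without day 3 replicate 3, day 6 replicate 1 or day 6 replicate 2, with changes of 0.16, 0.18 and 0.16 log2 and adjusted p up to 0.075. At lower levels the PYL gene Pag.B16G000240.v3.1 rose by 0.81 log2 (adjusted p = 7.95e-05). PP2C phosphatases, which hold the pathway off, had 16 rises and 11 falls among 28 (median 0.83, scaled 1.07). After scaling they had 16 rises and 3 falls. The largest fall, Pag.A18G001605.v3.1, was -1.04 log2 (adjusted p = 0.0322). That call was lost under median-ratio scaling, without any day 3 replicate, and without day 6 replicate 1 or 2. The PP2C gene Pag.A15G001279.v3.1 had 95.1, 95.2 and 89.4 FPKM on day 6, against 8.65, 9.01 and 8.13 FPKM on day 3. It rose by 3.30 log2 (SE 0.07, adjusted p = 3.68e-12). SnRK2 kinases counted 13 falls and 9 rises among 26, and ABF factors 11 falls and 9 rises among 23; the median of each was negative with the deposited values (-0.11 and -0.22) and positive after scaling (0.11 and 0.02).

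Ethylene genes rose in greater number than they fell. Synthesis and signalling genes counted 38 rises and 21 falls among 70 (median 0.39, scaled 0.61), and EREBP transcription factors 34 rises and 15 falls among 66 (median 0.40, scaled 0.63). Kept through day 6 alone were 3 and 6 genes of these lists. The ACS1_2_6 gene Pag.B02G001770.v3.1, for the enzyme that makes the ethylene precursor, had 104, 104 and 96.9 FPKM on day 6, against 3.18, 2.84 and 2.6 FPKM on day 3. It rose by 4.73 log2 (SE 0.08, adjusted p = 6.03e-13). All 4 tested genes of the 12 named ERF1, an ethylene response factor, rose, 2 of them kept through day 6 alone, with a summed mean of 53 FPKM on day 6, against 4.37 FPKM on day 3. EIN3, the central transcription factor of the pathway, had a gene Pag.B08G002287.v3.1 that fell by 1.08 log2 (SE 0.04, adjusted p = 5.5e-10). In the EREBP list Pag.B01G001645.v3.1 had 26.4, 19.4 and 24 FPKM on day 6, against 0.35, 0.91 and 0.69 FPKM on day 3. It rose by 3.88 log2 (SE 0.23, adjusted p = 7.98e-08).

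Other hormone lists were mixed. Jasmonate synthesis counted 20 falls (54.1%) and 10 rises (27.0%) among 37, near the 47.4% and 26.9% over all genes. After scaling it counted 18 falls and 14 rises (median -0.017). Lipoxygenase (LOX2S) genes lay at both ends: Pag.A01G001881.v3.1 rose by 1.70 log2 (SE 0.06, adjusted p = 1.04e-10) and Pag.A01G000345.v3.1 fell by 3.82 log2 (SE 0.13, adjusted p = 1.29e-10). The JAZ repressor Pag.B03G000889.v3.1 had 57.9, 56.2 and 61.4 FPKM on day 6, against 7.87, 6.93 and 7.49 FPKM on day 3. Cytokinin receptors and regulators showed 40 falls and 6 rises among 52 (median -0.69, scaled -0.49), and 13 of the 52 were kept through day 3 alone. The gibberellin receptor gene GID1 Pag.A02G000021.v3.1 had 26.4, 26.8 and 23.8 FPKM on day 6, against 0.63, 0.43 and 0.65 FPKM on day 3. It rose by 4.08 log2 (SE 0.08, adjusted p = 1.26e-12). The gibberellin list counted 23 falls (56.1%) and 11 rises (26.8%) among 41, near the 47.4% and 26.9% over all genes. Of these 41 genes, 5 were kept through day 6 alone and 1 through day 3 alone. The GH3 genes, auxin-conjugating enzymes, counted 7 rises and 4 falls among 13 (median 0.83, scaled 0.96), with 3 kept through day 6 alone and 4 through day 3 alone. Of 2 members at the ends, Pag.A07G002086.v3.1 and Pag.A13G000991.v3.1, the first had 15.2, 14.8 and 14.5 FPKM on day 6, against 0.01, 0.27 and 0.38 FPKM on day 3, and the second had 0.41, 0.6 and 0.6 FPKM on day 6, against 26.9, 25.8 and 27.2 FPKM on day 3.

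Among transcription factors, HD-ZIP genes showed 46 falls and 11 rises among 62 (median -0.88, scaled -0.73), and 16 of the 62 were kept through day 3 alone. Their summed level was higher on day 6, with 2137, 2082 and 2152 FPKM, against 1846, 1849 and 1828 FPKM on day 3. The HD-ZIP gene Pag.B12G000121.v3.1 had 114, 105 and 111 FPKM on day 6, against 5.98, 7.18 and 5.71 FPKM on day 3. It rose by 3.93 log2 (SE 0.16, adjusted p = 2.34e-09). The bZIP list had 24 rises and 11 falls among 40 (median 0.37, scaled 0.59), led by Pag.B08G001393.v3.1, which rose by 4.42 log2 (SE 0.22, adjusted p = 2.32e-08). The largest fall in that list, Pag.B04G001625.v3.1, was uneven within days, with 2.07, 3.03 and 10.7 FPKM on day 6, against 33.5, 12.7 and 46.1 FPKM on day 3. Its change of -2.42 log2 (adjusted p = 0.0437) lost its call under median-ratio scaling, with a pseudocount of 0.1, and without day 3 replicate 1 or 3 or day 6 replicate 1 or 2, with adjusted p up to 0.128. MYB factors counted 71 falls (44.7%) and 52 rises (32.7%) among 159, near the 47.4% and 26.9% over all genes. After scaling they had 63 falls and 64 rises. Of the 159, 30 were kept through day 3 alone and 10 through day 6 alone. The MYB gene Pag.B10G001418.v3.1 stood at the upper end. It had 54.5, 55.3 and 55.3 FPKM on day 6, against 1.47, 1.94 and 1.16 FPKM on day 3. WRKY33, a stress-response factor, had Pag.A13G001064.v3.1, which rose by 1.82 log2 (SE 0.04, adjusted p = 2.46e-12).

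Protein turnover and translation lists had medians near 0, and the scaling set the sign of most. Proteasome subunits had 45 rises and 40 falls among 147 (median 0.01), and after scaling 88 rises and 15 falls (median 0.25). Cytosolic ribosomal proteins had a median of -0.14 that turned to 0.10 after scaling, with 69 rises and 192 falls among 422 as deposited and 182 rises and 88 falls as scaled. Heat shock genes had 45 rises and 48 falls among 124 (median -0.04, turning to 0.18). Autophagy genes had 21 rises and 25 falls among 68 (median -0.07, turning to 0.15), and the ATG8 gene Pag.A10G001703.v3.1 had 88.9, 88.5 and 89.9 FPKM on day 6, against 16.6, 19.3 and 17.4 FPKM on day 3. It rose by 2.27 log2 (SE 0.10, adjusted p = 9.07e-10).

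Lists of detoxifying enzymes differed, beside 47.4% falls and 26.9% rises over all genes. The antioxidant list counted 42 falls (62.7%) and 17 rises (25.4%) among 67 (median -0.64, scaled -0.44). The PRDX6 gene Pag.A08G001560.v3.1 was listed at 0 on day 6, against 21.6, 24.5 and 23.4 FPKM on day 3. Class III peroxidases counted 26 falls (44.8%) and 23 rises (39.7%) among 58 (median -0.13, scaled -0.0003), with 6 kept through day 6 alone and 2 through day 3 alone. The largest fall there, Pag.B04G000152.v3.1, had 18.2, 20.4 and 17.4 FPKM on day 6, against 666, 699 and 701 FPKM on day 3. It fell by 5.14 log2 (SE 0.09, adjusted p = 1.19e-12). Glutathione transferases counted 31 falls (56.4%) and 22 rises (40.0%) among 55, or 26 falls and 22 rises after scaling. A gene of this list, Pag.B19G001533.v3.1, had 198, 202 and 211 FPKM on day 6, against 11.3, 15.2 and 14.7 FPKM on day 3, and it rose by 3.81 log2 (SE 0.11, adjusted p = 9.84e-11). Another, Pag.A02G002628.v3.1, fell by 3.91 log2 (SE 0.11, adjusted p = 1.02e-10).

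The largest rises among genes with a KO name, the KEGG orthology label of the table, began with a laccase (E1.10.3.2) gene, Pag.B05G002004.v3.1, which had 94.7, 119 and 90.7 FPKM on day 6, against 0.04, 0.07 and 0 FPKM on day 3. It rose by 6.62 log2 (SE 0.12, adjusted p = 9.96e-13). The 19 genes tested of that name had 8 rises and 10 falls, with 6 kept through day 6 alone and 5 through day 3 alone. AIRP2, a ubiquitin ligase name of abscisic acid signalling in Arabidopsis, had a gene Pag.B06G001916.v3.1 with 32.7, 34.2 and 33.9 FPKM on day 6, listed at 0 in all day 3 libraries. The cysteine synthase (cysK) gene Pag.A05G000487.v3.1 had 176, 171 and 173 FPKM on day 6, against 4.23, 4.27 and 4.15 FPKM on day 3. It rose by 5.06 log2 (SE 0.07, adjusted p = 1.53e-13). CST3, a cystatin name of protease inhibitors, had Pag.B02G002510.v3.1, which rose by 4.83 log2 (SE 0.17, adjusted p = 2.2e-09). The most abundant gene of day 6, Pag.B08G000961.v3.1, is annotated WHY1 and had 14628, 14262 and 14415 FPKM on day 6, against 698, 699 and 711 FPKM on day 3. A second gene annotated WHY1, Pag.A08G001025.v3.1, had 4802, 4749 and 4779 FPKM on day 6, against 219, 221 and 218 FPKM on day 3. On day 3 the most abundant gene was Pag.A01G004426.v3.1, without a KO name and with GO terms for copper binding, which had 6924, 6682 and 6767 FPKM on day 6, against 7975, 8558 and 8847 FPKM on day 3. Its change of -0.32 log2 was -0.07 after median-ratio scaling and then did not pass.

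The largest falls with a KO name lay mostly in the lists above. Outside them, Pag.B08G000021.v3.1, annotated as the terpene synthases GERD and E4.2.3.8, had 0.33, 0.15 and 0.14 FPKM on day 6, against 76.9, 73.3 and 81.5 FPKM on day 3. It fell by 6.02 log2 (SE 0.08, adjusted p = 6.76e-14). The thiamine thiazole synthase (THI4) gene Pag.B04G000210.v3.1 had 4.09, 3.97 and 3.61 FPKM on day 6, against 195, 211 and 199.8 FPKM on day 3. It fell by 5.38 log2 (SE 0.22, adjusted p = 1.21e-08). Among genes without a KO name, Pag.A02G002529.v3.1, whose GO terms include iron binding and oxidoreductase activity, had 1515, 1441 and 1488 FPKM on day 6, against 0.77, 0.53 and 0.56 FPKM on day 3. It rose by 9.84 log2 (SE 0.07, adjusted p = 2.39e-15), the largest rise of all genes named here. A gene with the GO term nutrient reservoir activity, Pag.B01G004246.v3.1, had 1027, 999 and 1008 FPKM on day 6, against 3.4, 2.68 and 3.78 FPKM on day 3. Its mean over time was 0.247, 3.29, 1011 and 196 FPKM on days 0, 3, 6 and 9. The 3 largest falls without a KO name, Pag.B07G000832.v3.1, Pag.A07G002260.v3.1 and Pag.A05G000998.v3.1, were listed at 0 in all day 6 libraries and lay between 136 and 202 FPKM in those of day 3.

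**Figure D4:**
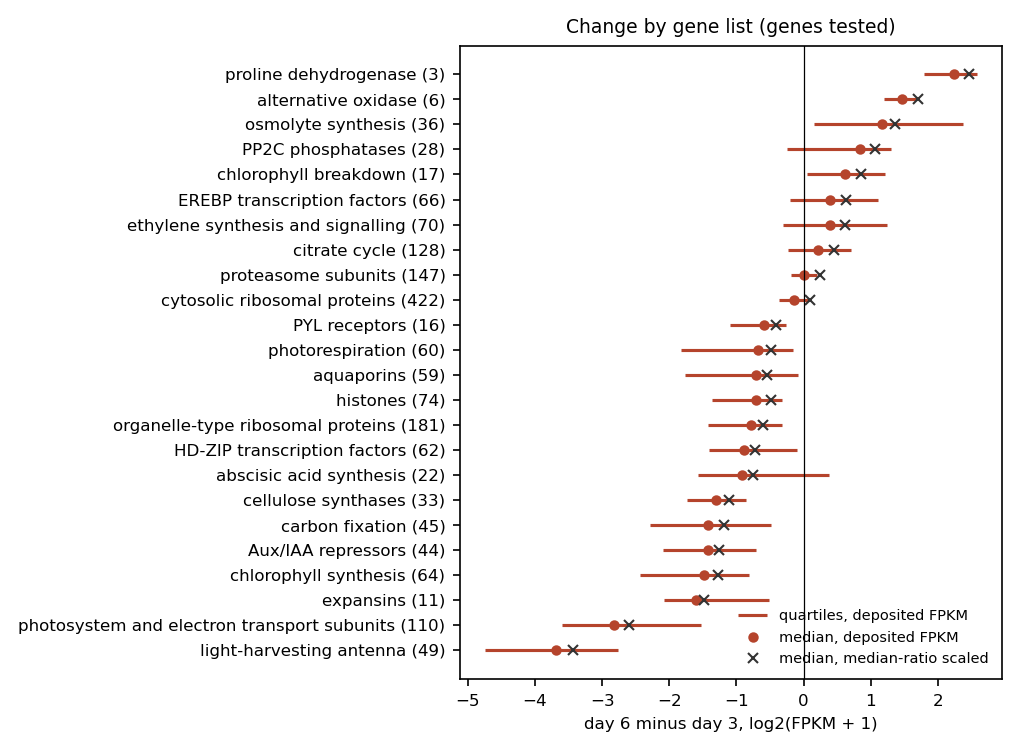
Median (dots) and quartiles (bars) of the log2(FPKM + 1) change, day 6 minus day 3 (x axis), for 24 gene lists with the number of genes tested in brackets; crosses show the medians after median-ratio scaling. Medians run from -3.69 in the antenna to 2.24 in proline dehydrogenase.

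Over the 125 pathways with at least 15 genes tested, 104 had a median below 0 with the deposited values and 61 after scaling. The lowest after antenna proteins and brassinosteroid biosynthesis were photosynthesis (median -1.65, 105 falls and 7 rises among 165) and porphyrin metabolism (-0.92, 74 and 22 among 112), with 14 and 13 genes kept through day 3 alone. Linoleic acid metabolism (-0.82), sesquiterpenoid and triterpenoid biosynthesis (-0.79), steroid biosynthesis (-0.79) and various plant secondary metabolites (-0.74) came next. At the high end stood zeatin biosynthesis (0.56, 11 rises and 4 falls among 18 tested of 52 gene models) and the citrate cycle (0.22). Vitamin B6 metabolism (0.19), taurine and hypotaurine metabolism (0.15) and nicotinate and nicotinamide metabolism (0.14) came next. The MAPK signalling pathway, with 129 rises and 105 falls among 281, had a median of 0.14. In zeatin biosynthesis the gene Pag.B06G002408.v3.1, annotated CISZOG, a cytokinin glucosyltransferase name, rose by 2.88 log2 (SE 0.15, adjusted p = 1.53e-08).

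**Figure D5:**
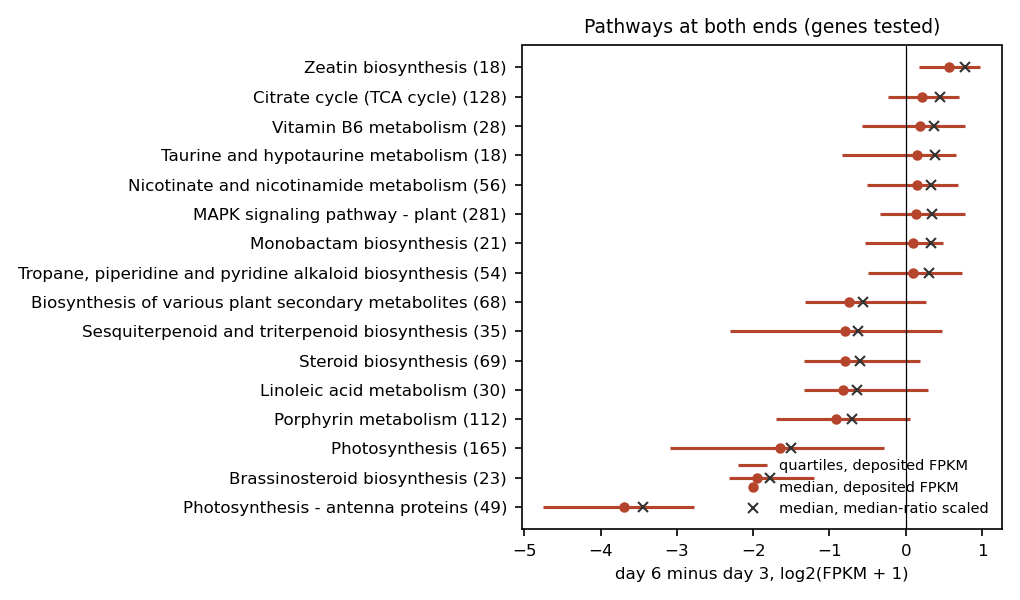
Median (dots) and quartiles (bars) of the log2(FPKM + 1) change, day 6 minus day 3 (x axis), for the 8 highest and 8 lowest pathways, with the number of genes tested in brackets; crosses show medians after median-ratio scaling. The lowest median is -3.69 and the highest 0.56.

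GO terms gave a like order. Of 299 terms with at least 50 genes, 261 had a median below 0 as deposited and 141 after scaling. The lowest were photosystem I (-3.52, 59 falls and 0 rises among 69, with 11 kept through day 3 alone) and response to light stimulus (-2.49). The highest was the ethylene-activated signalling pathway (0.57, 50 rises and 17 falls among 82, with 9 kept through day 6 alone). Terms of translation initiation reached 0.24, with 35 rises and 8 falls among 54 genes for formation of the cytoplasmic translation initiation complex.

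The step was also set against its neighbours in time. For 21641 genes (56.9%) the change from day 3 to day 6 differed from that between days 0 and 3 in limma's test of the difference, and for 23114 genes (60.8%) from that between days 6 and 9. Against the first step, 19.7% of genes had a more positive change and 37.3% a more negative one, or 6.46% and 15.2% with a difference of at least 1 log2. Against the last step the shares were 20.8% and 40.0%, or 7.97% and 18.2% at that size. Both splits are from the deposited values, where the median change over all genes was -0.001, -0.20 and 0.04 log2 in the 3 steps in order. Median-ratio scaling gave 21126 and 22760 genes with a difference, and its split by direction is not given here. These steps share libraries, so no overlap between them is given. The GOLS gene Pag.A08G001549.v3.1 averaged 0.157, 14.2, 432 and 541 FPKM on days 0, 3, 6 and 9. The PRODH gene Pag.B17G000516.v3.1 averaged 92.7, 93.1, 719 and 752 FPKM on days 0, 3, 6 and 9, and its step from day 3 to day 6 differed from the first step with an adjusted p of 2.67e-11. For the SWEET gene Pag.A01G000814.v3.1 the difference from the first step did not pass (adjusted p = 0.108), with means of 0.233, 23.9, 580.0 and 535 FPKM on days 0, 3, 6 and 9. For the stay-green gene Pag.B01G001209.v3.1 it did not pass either (adjusted p = 0.854).

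Day 9 against day 0 shares no library with day 6 against day 3. It called 29503 genes (77.6%), 32.1% higher and 45.5% lower on day 9, or 12.5% and 19.4% by at least 1 log2. This split is also from the deposited values. Median-ratio scaling called 29360 genes, and its split is not given here. Of the 2963 genes that rose by at least 1 log2, 88.9% were also higher by that size on day 9 than on day 0, and they made up 55.4% of that list. Of the 6170 that fell, 82.9% were lower by that size, making up 69.5% of that list. The median level of the genes that rose was 1.94, 2.47, 4.30 and 4.29 on the log2(FPKM + 1) scale on days 0, 3, 6 and 9, and of the genes that fell 3.61, 3.28, 1.51 and 1.66. There were 52 genes at 10 FPKM or more in all day 6 libraries and below 1 FPKM in all day 3 libraries, and 133 with the reverse. Of the 52, 46 were below 1 FPKM in all libraries of day 0 and 43 at 10 FPKM or more in all libraries of day 9.

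Markers of leaf cell types gave this picture of the tissue. The mesophyll markers, antenna and rbcS, were among the most reduced genes on day 6, though they were present on both days. The guard cell list summed to 110, 111 and 116 FPKM on day 6, against 72.7, 78.2 and 80.2 FPKM on day 3, with 7 rises and 9 falls among 18 genes, 5 of them kept through day 3 alone. The vascular list summed to 114, 111 and 115 FPKM on day 6, against 172, 161 and 161 FPKM on day 3, with 2 rises and 13 falls among 19, 3 of them kept through day 3 alone. The part of cell composition in the results above was not tested.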

How the data were processed

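RNA was measured in 12 leaf libraries of 4 days. The deposited table holds FPKM values, named so by the authors in the title of the table; which aligner, build and program produced them is not given in the sources used, and deposited tables of gene subsets were not used. Groups follow the day in the labels. Values were analysed as log2(FPKM + 1) with limma 3.58.1 in R 4.3.3 (intensity trend, robust moderation, 1 mean per day over all 12 libraries), with Benjamini-Hochberg adjustment over 38012 genes and calls at adjusted p under 0.05. The log2 scale with a pseudocount of 1 understates the change of low genes. An exact 0 may be a failed estimate. With 3 libraries against 3, a permutation test of 1 gene cannot go below p = 0.1, so limma's pooled spread carries the calls. On simulated data for day 6 against day 3 with 38012 genes, 96 of 100 genes changed by 1 log2 and 99 of 100 changed by 2 were called, with 5 false calls among 37812 others. The changed genes were drawn from those with a day 3 mean of at least 5 FPKM, so recovery of lower genes was not tested. Noise was normal and independent between libraries, and no shift over all genes was simulated.

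Lists were matched to KO names or pathways. Genes named were the 10 largest rises and falls with a KO name (1 per name, no overlap between days, mean of at least 5 FPKM on the higher day), the largest rise and fall in each list and described pathway or GO term, the 3 largest without a KO name, and the most abundant gene of each day. Genes of the E2.4.1.82 and ERF1 names were chosen after their values were seen. The members and lists were chosen with earlier results of these data known. Gene copies with near-identical sequence could share reads. Alternatives were median-ratio scaling (36384 genes), a pseudocount of 0.1, no minimum, a mean of at least 5 FPKM, 6 libraries alone, a replicate block, no trend or robust moderation, and leaving out each of the 6 libraries. The relative depth estimate was tried with 2 ranges of FPKM, both chosen after seeing the data, and both are reported; no test uses it.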

Additional observations from a re-analysis of the deposited data

Results flagged for a closer look

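The change from day 3 to day 6 differed from the change between days 0 and 3 in 21641 of 38012 genes, by limma's test of the difference of the 2 steps. It differed from the change between days 6 and 9 in 23114 genes by the same test. Both steps share libraries with day 6 against day 3.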

How the results depend on the processing

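None of the 182 named genes changed the sign of its change under the alternatives in which it was tested. With a mean of at least 5 FPKM, 163 of them were tested. The balance of calls did turn under median-ratio scaling, to 14035 higher and 13895 lower, against 10212 and 18023 with the deposited values, and so did that of lists such as cytosolic ribosomal proteins (182 and 88, against 69 and 192), SnRK2 kinases (12 and 5, against 9 and 13) and ABF factors (10 and 7, against 9 and 11). The genes called, 28235, ranged from 27077 to 27260 when 1 library was left out; those higher ranged from 9729 to 9849 and those lower from 17302 to 17446. By at least 1 log2 the ranges were 2940 to 2985 higher and 6108 to 6226 lower. Step differences ranged from 19322 to 21061 against the first step and from 20904 to 22661 against the last, and day 9 against day 0 from 29407 to 29475. Requiring a mean of at least 5 FPKM left fewer genes to test and gave 17435 called, 9640 lower, 3261 lower by at least 1 log2, 14131 and 14557 step differences and 18280 for day 9 against day 0. Median-ratio scaling gave the opposite sign for 16 of 70 list medians and a mean of at least 5 FPKM for 12, no minimum for 4 and leaving out 1 library for 1 to 4. Of the 182 named genes 4 lost their call under median-ratio scaling, 1 each with a pseudocount of 0.1 and with 6 libraries alone, and 0 to 3 without 1 library; the cause was not tested. Replicate numbers did not pair the libraries: deviations of same-numbered libraries of days 6 and 3 correlated at -0.00793 to 0.0115, and the replicate block gave 28025 genes called. FPKM without read counts sets the limit: counting error and depth per gene are unknown.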
